A study of Mus musculus with 123 samples.

Results

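The 2 control groups of the study were compared with each other at the early inner cell mass (ICM) stage: 8 Oct4 Ctrl and 8 Sox2 Ctrl early ICMs, 16 single embryos beside 107 others in the series, taken by their column names in the table of transcript counts. Both groups were E3.75 ICMs, taken from superovulated females, cultured with the MEK inhibitor PD0325901 at 1 μM from E2.5 until isolation, and freed of trophectoderm (TE) by immunosurgery, and both carry the label B6C3F1. Oct4 Ctrl embryos came from Pou5f1 flox/flox; Zp3-Cre mothers and Pou5f1 +/mKO2 fathers, and Sox2 Ctrl embryos from Sox2 flox/flox; Zp3-Cre mothers and Sox2 +/EGFP fathers. Zp3-Cre acts in the growing oocyte, so that each Ctrl embryo had lost the maternal copy of its line's gene and kept an intact paternal one. The targeted gene therefore differs between the groups, and so does everything else that separates the lines. The labels name no litter, collection day or batch, so line and batch cannot be told apart. The question asked here was which genes differed between the 2 sets of controls, and which of these lie on the axis along which the ICM changes from early to late.

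Oct4, encoded by Pou5f1, and Sox2 are transcription factors that bind DNA together and keep the cells of the epiblast (EPI), the source of the embryo proper, pluripotent. The early ICM is a mixed population of EPI and primitive endoderm (PE) precursors, and the PE precursors depend on FGF signalling through MEK. As the ICM matures, the epiblast acquires its own set of transcription factors. Embryos of the same nominal age can stand at different points of this path.

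The 16 libraries held 784645 to 1051677 unique molecular identifiers (UMIs, tags that count each captured transcript once) and 12885 to 13862 detected genes, and expression is given as CPM, UMI counts scaled to a common library total. At the lowest depth 1 CPM was 0.785 UMIs. The p-values measure the spread between the sampled embryos. The EPI marker Nanog was detected in all 16 embryos, at 406 to 993 CPM in Oct4 Ctrl and 574 to 1088 CPM in Sox2 Ctrl embryos. The summed CPM of 9 TE markers ran from 403.6 to 1307 in Oct4 Ctrl and from 125 to 582.2 in Sox2 Ctrl embryos, and the TE gene Dlx3 was at 0 in all 16. The summed CPM of 6 PE markers ran from 298.5 to 716.5 in Oct4 Ctrl and from 59.08 to 700.8 in Sox2 Ctrl embryos, with Foxa2 at 0 in all 16 and Sox7 at 2.08 CPM or less. Embryos are whole ICMs, so fewer cells of a type and less RNA per cell cannot be told apart.

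Of 13923 genes tested, 1383 (9.93%) were called different, with 709 (5.09%) higher and 674 (4.84%) lower in Sox2 Ctrl. A gene was called at a Benjamini-Hochberg adjusted p under 0.05 in edgeR's quasi-likelihood test when its log2 fold change was also 1 or more in size. Every fold change below is Sox2 Ctrl minus Oct4 Ctrl on the log2 scale unless stated otherwise, and every adjusted p is from this test. The values of the 8 Oct4 Ctrl and the 8 Sox2 Ctrl embryos did not overlap for 769 of all genes tested (5.52%) and for 335 of the called genes (24.2%). Limma on the authors' rlog values, which are shrunken, called 433 genes.

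To place these genes on a developmental axis without using the 16 embryos, the late and early ICMs of the Oct4 line whose mothers kept the gene (MWT, 8 late and 5 early) were compared. This axis held 1839 genes (13.2% of those tested), 1013 rising (7.28%) and 826 falling (5.93%) from early to late. The sample titles give these stages, whereas the source names give E2.75 morula for the early and E3.75 early ICM for the late group, and the early group carries no MEK inhibitor label. The summed CPM of EPI markers ran from 1946 to 3966 in this early group. It ran from 2089 to 3190 in Oct4 Ctrl early ICMs and from 790.5 to 1032 in Oct4 Ctrl morulae. The titles were used here. Of the 1383 genes that differed between the controls, 478 (34.6%) lay on the axis and differed towards late, 24 (1.74%) lay on the axis and differed against it, and 881 (63.7%) were off it. A call was more frequent among axis genes (27.3%) than among genes off the axis (7.29%). Among rising genes 21.8% were higher in Sox2 Ctrl and 1.38% lower, and among falling genes 31.1% were lower and 1.21% higher. The median log2 fold change was 0.63 for the rising genes, -0.74 for the falling genes and 0.0104 for all genes. Only 297 of the 881 called genes off the axis had an axis adjusted p of at least 0.05 together with an axis log2 fold change under 0.5 in size.

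**Figure D1:**
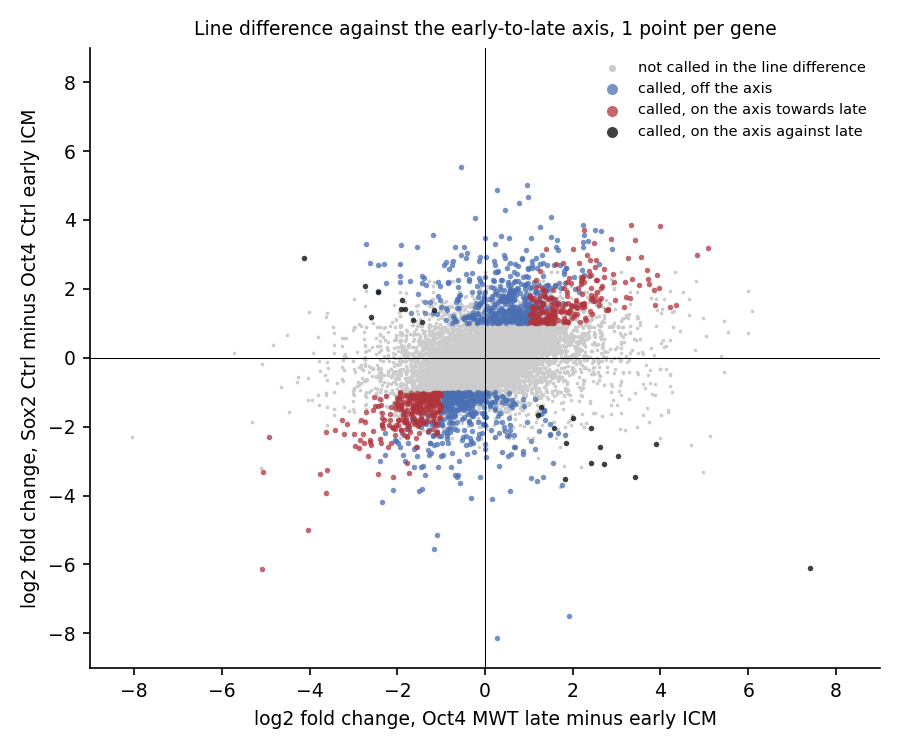
Each point is 1 of the 13923 genes, with the log2 fold change from early to late in Oct4 MWT ICMs on the x axis and the log2 fold change of Sox2 Ctrl over Oct4 Ctrl early ICMs on the y axis. Red points (478 called genes) lie in the quadrants where both changes have the same sign, black points (24) in the others, and blue points (881) are called genes that did not pass on the axis.

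The position of each embryo on this axis was expressed as the mean log2 CPM of rising genes minus that of falling genes, scaled so that the MWT early ICMs average 0 and the MWT late ICMs average 1. Oct4 Ctrl early ICMs stood at 0.143 ± 0.131 (SD, n = 8), with a lowest value of -0.0183, a median of 0.135 and a highest of 0.378. Sox2 Ctrl early ICMs stood at 0.55 ± 0.158 (SD, n = 8), from 0.312 through a median of 0.5475 to 0.78. The groups overlapped only in Oct4 Ctrl embryo 9, at 0.378, and Sox2 Ctrl embryo 2, at 0.312. The difference of 0.407 gave p = 0.000311 in an exact two-sided permutation test over 12870 splits of the 16 embryos, and leaving out any 1 embryo kept it between 0.374 and 0.441. Oct4 Ctrl embryo 9 also had the highest summed TE markers of its group (1307 CPM), and Sox2 Ctrl embryo 10, the furthest along at 0.78, had the lowest PE sum (59.08 CPM) and the highest EPI sum (4238 CPM) of the 16. The part of these markers in the position was not tested.

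Other groups placed the 16 embryos in context. Sox2 MWT early ICMs, whose mothers kept the gene, stood at 0.392 ± 0.0757 (SD, n = 7), against 0 ± 0.145 for the 5 Oct4 MWT early ICMs that define the zero point. Ctrl morulae of the 2 lines were close to each other, at 0.121 ± 0.0578 for Oct4 and 0.125 ± 0.0234 for Sox2 (SD, n = 8 each). Among Ctrl late ICMs the order was the other way round, with 0.912 ± 0.113 for Oct4 and 0.814 ± 0.0749 for Sox2 (SD, n = 8 each). These differences between other groups were not tested.

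The direction of the axis result depended on the embryos that defined it. With an axis from Oct4-KO late and early ICMs, chosen after the data were seen, the position differed by 0.723 (exact permutation p = 0.000155, the smallest the design allows) and 506 called genes lay towards late. An axis from Sox2-KO late and early ICMs held 146 genes, and on it the position differed by -0.671 (exact permutation p = 0.0253). There 11 called genes lay towards late and 12 against it. On the MWT axis the Sox2-KO early and late ICMs themselves stood close together, at 0.487 ± 0.0479 and 0.508 ± 0.0853 (SD, n = 8 each). Their difference was not tested. The KO embryos came from the same crosses as the Ctrl embryos of their line, so a KO axis is not independent of the lines compared. The genes shared by both KO axes numbered 21 and gave 0.304 (exact permutation p = 0.0423). With each embryo's position as a covariate, 106 called genes lay towards late and 124 against, and off the axis 777 genes were called, of which 210 were among the 817 called in the same 16 embryos without it. Of the 85 genes that the rule for naming picked, 39 lost their call in that fit without a change of sign, 7 turned sign and 38 stayed as they were. Dnmt3l, Dusp6, Etv5, Pfkp and Tcl1, described below, turned sign without passing the test. Among the genes described below with lost calls were Hap1 (1.76, adjusted p = 0.0966), Dlgap3 (1.34, adjusted p = 0.109), Sox17 (1.90, adjusted p = 0.282), Egr1 (1.01, adjusted p = 0.156), Pou2f3 (1.01, adjusted p = 0.121) and Slc13a5 (0.37, adjusted p = 0.832). Position and line cannot be told apart in this fit. The position is computed from the axis genes in the same 16 embryos, so an axis gene is adjusted in part for itself. A lost or turned call in this fit therefore cannot decide whether a gene differs by line or by position.

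**Figure D2:**
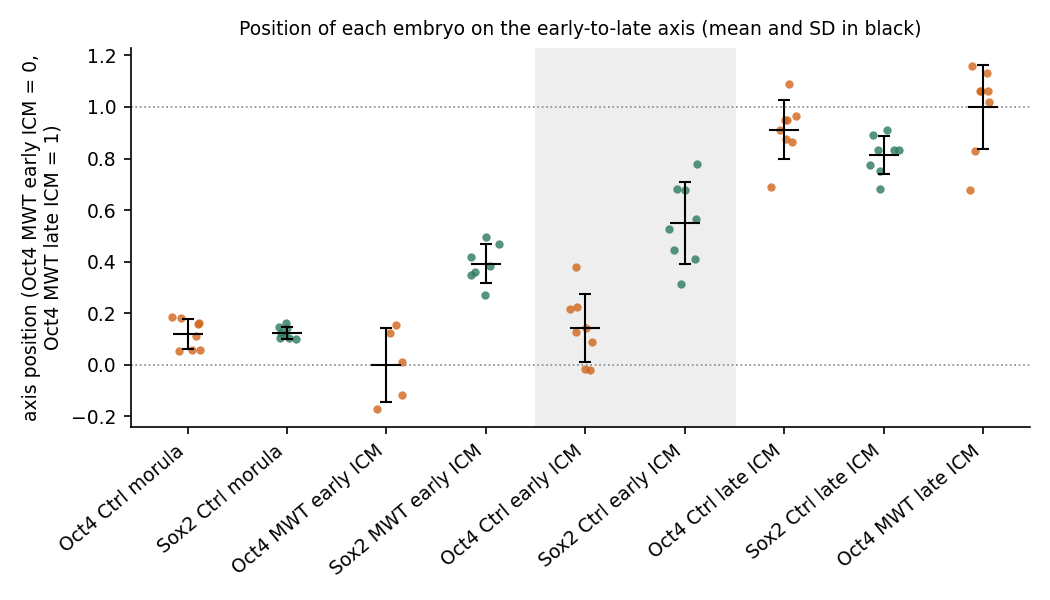
Axis position of every embryo (points, orange for the Oct4 line and green for the Sox2 line) with the mean and SD of its group in black, for Ctrl and MWT groups ordered by stage. In the shaded pair, Oct4 Ctrl early ICMs lie between -0.0183 and 0.378 and Sox2 Ctrl early ICMs between 0.312 and 0.78, while the Ctrl morulae of both lines lie close together.

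Among the genes that differed towards late, those with the highest and lowest fold changes were described if the higher group averaged at least 20 CPM. Hap1, a huntingtin-associated trafficking protein, had a lowest value of 0, a median of 1.16 and a highest of 4.86 CPM in Oct4 Ctrl, against 8.3, 17.9 and 53 CPM in Sox2 Ctrl. The groups did not overlap (log2 fold change 3.72, SE 0.516, adjusted p = 5.52e-09). Dlgap3, a postsynaptic scaffold protein, stood at 1.15, 2.4 and 4.26 CPM in Oct4 Ctrl and at 10.4, 19.4 and 51.9 CPM in Sox2 Ctrl, again without overlap (3.17, SE 0.487, adjusted p = 1.1e-07). Nptx2, Chpf and Sqle, the last a cholesterol enzyme described below, were higher by 2.99, 2.52 and 2.53. On the falling side, Tmem87a, a Golgi membrane protein, ranged from 4.86 to 51.0 CPM in Oct4 Ctrl and from 3.69 to 8.71 CPM in Sox2 Ctrl, where only the lowest Oct4 Ctrl embryo overlapped (-2.60, SE 0.368, adjusted p = 1.02e-08). Nucb2, Ammecr1l and Flvcr2, a haem transporter family member, were lower by -2.24, -2.21 and -2.17. St6galnac4, a sialyltransferase, was lower by -4.99 (SE 1.02, adjusted p = 6.71e-05), but the Oct4 Ctrl group was split: embryos 3, 4, 7 and 9 had 59.5, 84.2, 64.3 and 65 CPM, and the other 4 had 2.43 CPM or less, as did all Sox2 Ctrl embryos but 1 at 3.32 CPM. Between Ctrl late ICMs Hap1, Dlgap3, Nptx2 and Sqle were also called higher (2.196, 1.708, 2.97 and 1.175). Tmem87a, Flvcr2 and St6galnac4 were also called lower there (-1.333, -1.083 and -4.874). Chpf, Ammecr1l and Nucb2 were not called there (0.29, 0.027 and 0.071). Of all 478 genes towards late, 19 were called in the same direction between Ctrl late ICMs.

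Of the 24 genes against the axis, 4 met the rule for naming. Cadm1, a cell adhesion molecule that falls on the axis, ran from 8.19 through a median of 20.5 to 37.4 CPM in Oct4 Ctrl and from 30.1 through 53.1 to 82.7 CPM in Sox2 Ctrl (1.38, SE 0.319, adjusted p = 0.000394). Shisal2b, also falling on the axis, was higher by 1.67 without overlap of the groups. Gadd45g, a stress-responsive growth arrest gene that rises on the axis by 2.41, had a median of 38.4 CPM in Oct4 Ctrl and of 8.78 CPM in Sox2 Ctrl and was lower by -2.03 (SE 0.459, adjusted p = 0.00029). Its relative Gadd45a was higher by 1.09, a call that was lost in 10 of the 16 fits that left out 1 embryo each (0.81 to 1.36).

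The targeted genes themselves did not pass the test, although Pou5f1 did with axis position as a covariate (-1.03, adjusted p = 0.0086). Pou5f1 had a lowest value of 58.3, a median of 84.6 and a highest of 93.6 CPM in Oct4 Ctrl, and of 40.5, 53.7 and 88.6 CPM in Sox2 Ctrl, with overlapping groups (log2 fold change -0.46, SE 0.213, adjusted p = 0.104). In Ctrl morulae the order was the other way round, with 20.8 ± 5.33 CPM in the Oct4 line and 80.5 ± 7.84 CPM in the Sox2 line (SD, n = 8 each), and likewise in Ctrl late ICMs, with 43.8 ± 12.4 and 115 ± 46.1 CPM. The line difference of Pou5f1 differed between early and late ICMs by -1.79 (adjusted p of the interaction 4.84e-06). Sox2 had 85.1, 132 and 190 CPM in Oct4 Ctrl and 72.6, 94.0 and 194 CPM in Sox2 Ctrl (lowest, median and highest), a log2 fold change of -0.27 (SE 0.283, adjusted p = 0.525).

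Of 22 naive pluripotency genes, which mark the unprimed epiblast, 2 were higher, 1 was lower and 19 were not called, where 5.09% of all genes tested were higher and 4.84% lower, and the median log2 fold change was -0.23. Utf1, a chromatin factor of pluripotent cells, ran from 98.5 through a median of 147 to 195 CPM in Oct4 Ctrl and from 293 through 535 to 719 CPM in Sox2 Ctrl. The lowest Sox2 Ctrl embryo was above the highest Oct4 Ctrl embryo, and Utf1 was higher by 1.72 (SE 0.209, adjusted p = 5.91e-11). Tcl1, a coactivator of Akt signalling, was higher by 1.502 (SE 0.428, adjusted p = 0.00458). Klf4, a pluripotency transcription factor, ran the other way, from 496 through 639 to 1073 CPM in Oct4 Ctrl and from 134 through 275 to 401 CPM in Sox2 Ctrl, with no overlap (-1.26, SE 0.247, adjusted p = 2.94e-05). Nanog was not called, with a log2 fold change of -0.01 (SE 0.24, adjusted p = 0.979).

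Genes of the later epiblast, which prepare the epiblast for differentiation, were few in number, and the 4 called ones lay on the axis. Of 7 members tested, 3 were higher, 1 was lower and 3 were not called, beside 5.09% higher and 4.84% lower among all genes, and the median was 1.03. Foxd3, a transcription factor, had medians of 6.99 and 27.7 CPM and wide, overlapping ranges, 0 to 62.9 CPM in Oct4 Ctrl and 1.94 to 188 CPM in Sox2 Ctrl (2.01, SE 0.588, adjusted p = 0.00595). Its call was lost without Sox2 Ctrl embryo 10 (1.48, adjusted p = 0.0589), the embryo furthest along the axis. Over the 16 fits that left out 1 embryo each, its log2 fold change ran from 1.48 to 3.06. With axis position as a covariate the direction of Foxd3 turned and the call was made the other way (-3.48, adjusted p = 9.12e-05). Foxd3 rises on the axis by 3.96 and is itself part of the position, so this turn decides nothing about the line difference. Dnmt3l, a cofactor of de novo DNA methylation, was higher by 1.03, a call lost in 5 of the 16 fits that left out 1 embryo each (0.76 to 1.25). Otx2, which directs the exit from the naive state, was lower by -1.58 (SE 0.489, adjusted p = 0.0096) and falls on the axis.

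Of 19 TE genes tested, 1 was higher, 2 were lower and 16 were not called, where 9.93% of all genes were called. The log2 fold change was above 0 for 1 TE member, with a median of -0.70, whereas the median change of the list on the axis from early to late was 1.16, with 8 members on the axis. Cdx2, the TE master regulator, ran from 4.54 through 11.6 to 35.2 CPM in Oct4 Ctrl and from 0 through 3.61 to 15.6 CPM in Sox2 Ctrl (-1.60, SE 0.455, adjusted p = 0.00447). Eomes was lower by -1.32 (SE 0.42, adjusted p = 0.0121), and Krt19, a keratin at 9.8 CPM or less in every embryo, was higher by 2.39, a call lost in 9 of the 16 fits that left out 1 embryo each. Of 18 PE genes, 2 were higher, 1 was lower and 15 were not called, beside the same 9.93%, and 10 had a log2 fold change above 0, with a median of 0.203. Sox17, a PE transcription factor, had a median of 3.13 CPM in Oct4 Ctrl (0 to 19.3) and of 50 CPM in Sox2 Ctrl (1.04 to 104), with 2 Sox2 Ctrl embryos, 2 and 10, inside the Oct4 Ctrl range (2.753, SE 0.726, adjusted p = 0.0022). Gata4 was higher by 2.31 at a median of 5.58 CPM, a call lost in 8 of the 16 fits that left out 1 embryo each (1.80 to 3.13). Dab2, an endocytic adaptor of the PE, was lower by -1.33 and lost its call without Oct4 Ctrl embryo 9 (-1.07, adjusted p = 0.0646). Gata6, the earliest PE factor, was at 470 and 330 CPM on average and was not called (-0.49, SE 0.276, adjusted p = 0.196).

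**Figure D3:**
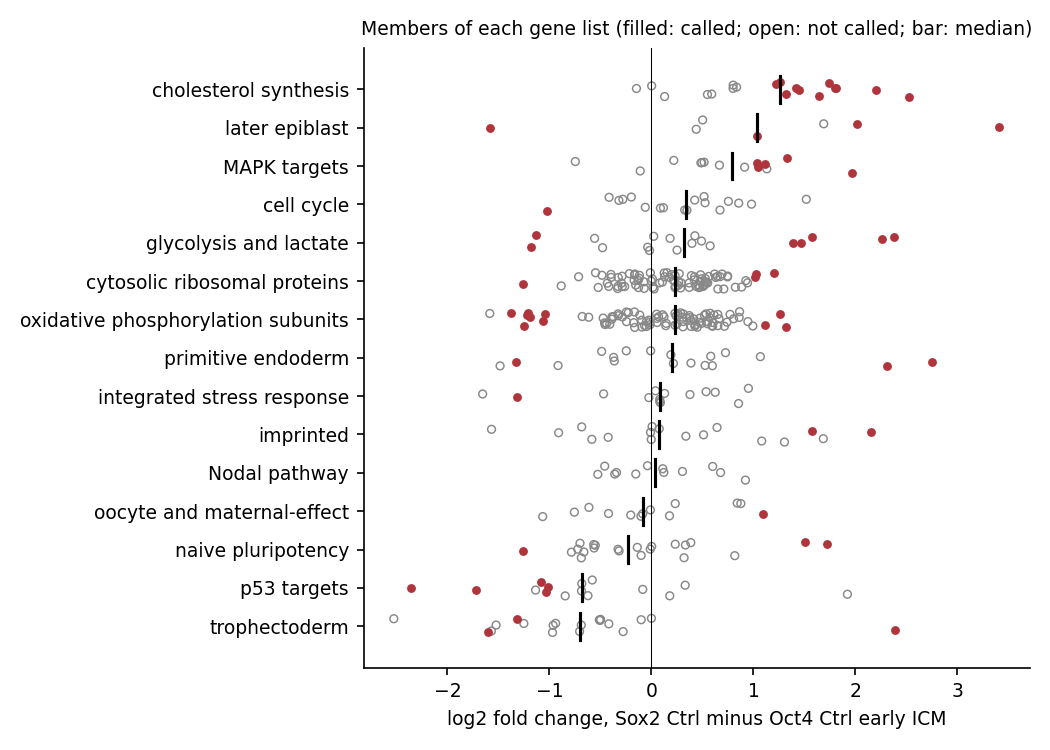
Log2 fold change of each member of 15 gene lists, Sox2 Ctrl minus Oct4 Ctrl early ICMs, with called members filled in red, other members open, and the median of each list as a black bar. The cholesterol list has the highest median (1.26) with 11 of 19 members called higher and none lower, and the TE and p53 lists have the lowest medians (-0.70 and -0.69).

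Cholesterol synthesis was the list with the most calls in 1 direction. Its genes encode the enzymes of the mevalonate pathway and of the later steps to cholesterol, together with Srebf2, the transcription factor that switches them on when sterols are low, Insig1, which holds that factor back, and the LDL receptor. Of 19 members tested, 11 were higher in Sox2 Ctrl, none was lower and 8 were not called, and the median was 1.26, where 5.09% of all genes tested were higher. Only 3 of the 19 lay on the axis, Sqle, Mvd and Mvk. Srebf2 had 8.3, 14.7 and 26.5 CPM in Oct4 Ctrl and 36.9, 69.6 and 92.2 CPM in Sox2 Ctrl (lowest, median and highest). The groups did not overlap (2.21, SE 0.381, adjusted p = 2.21e-06). Sqle, which makes squalene epoxide, had 3.82, 7.66 and 13.4 CPM in Oct4 Ctrl and 11.1, 49.1 and 75.5 CPM in Sox2 Ctrl, and overlapped only at the lowest Sox2 Ctrl embryo (2.53, SE 0.422, adjusted p = 9.43e-07). Hmgcs1, which catalyses an early step of the pathway, had 51, 71.9 and 89.7 CPM in Oct4 Ctrl and 107, 159 and 243 CPM in Sox2 Ctrl, again without overlap (1.22, SE 0.226, adjusted p = 9.74e-06). Fdps, Mvd, Cyp51, Insig1, Sc5d and Mvk were higher by 1.32 to 1.81. Of the remaining members Pmvk, Idi1 and Fdft1 differed by 0.83, 0.80 and 0.80, below the minimum of 1, and Nsdhl, Dhcr7 and Msmo1 by -0.15, 0.00 and 0.13.

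In other embryos of the 2 lines the cholesterol list gave the following counts. Between Sox2 and Oct4 MWT early ICMs, 14 of 19 members were higher and none lower, with a median of 1.41, where 2.91% of all genes were higher and 5.16% lower. The Oct4 MWT early ICMs also define the axis, on which Sqle, Mvd and Mvk lie. Unlike the Sox2 MWT early ICMs they carry no MEK inhibitor label, and their source names give a morula. Treatment and stage may therefore also differ in the MWT comparison. Between Ctrl late ICMs, 8 of 19 were higher and none lower (median 0.945), where 1.22% of all genes were higher. Between Ctrl morulae, 1 was higher and 1 lower (median 0.0366), where 2.33% of all genes were higher and 4.68% lower. Srebf2 itself was at 3.72 ± 3.25 and 3.89 ± 2.23 CPM in Oct4 and Sox2 Ctrl morulae (SD, n = 8 each), and at 17.1 ± 10.1 CPM in the 5 Oct4 MWT and 98.1 ± 44.6 CPM in the 7 Sox2 MWT early ICMs (SD).

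RefSeq promoter sequences (GRCm38.p6, from 250 bases before to 50 bases after the start) were held for 13 of the 19 cholesterol genes, and they were searched on both strands for TCACNNCAC, a form of the sterol regulatory element bound by the Srebf2 protein. The letters were present in 2 of the 13 promoters and in 1 of the 7 that belonged to called members, against 3.73% of 27025 promoters. The 2 promoters are shown because their genes differed in outcome, Hmgcs1 being called higher (1.22) and Msmo1 not called (0.13), and the capitals mark the match, which starts 137 bases before the start of Hmgcs1 and 92 before that of Msmo1. Hmgcs1 lies on the plus strand (chr13:119690101-119690400) and Msmo1 on the minus strand (chr8:64733529-64733828).
Hmgcs1: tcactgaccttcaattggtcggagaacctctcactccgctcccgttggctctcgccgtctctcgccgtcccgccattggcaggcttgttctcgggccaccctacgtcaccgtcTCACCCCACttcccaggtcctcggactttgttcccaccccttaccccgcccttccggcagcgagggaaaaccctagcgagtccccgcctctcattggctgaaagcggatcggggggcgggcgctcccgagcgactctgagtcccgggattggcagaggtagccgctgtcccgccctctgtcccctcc
Msmo1: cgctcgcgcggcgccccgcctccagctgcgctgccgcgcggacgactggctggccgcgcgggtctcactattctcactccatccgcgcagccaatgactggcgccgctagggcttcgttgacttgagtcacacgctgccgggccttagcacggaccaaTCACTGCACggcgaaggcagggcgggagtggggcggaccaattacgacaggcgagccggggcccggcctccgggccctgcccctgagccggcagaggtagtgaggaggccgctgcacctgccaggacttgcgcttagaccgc

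**Figure D4:**
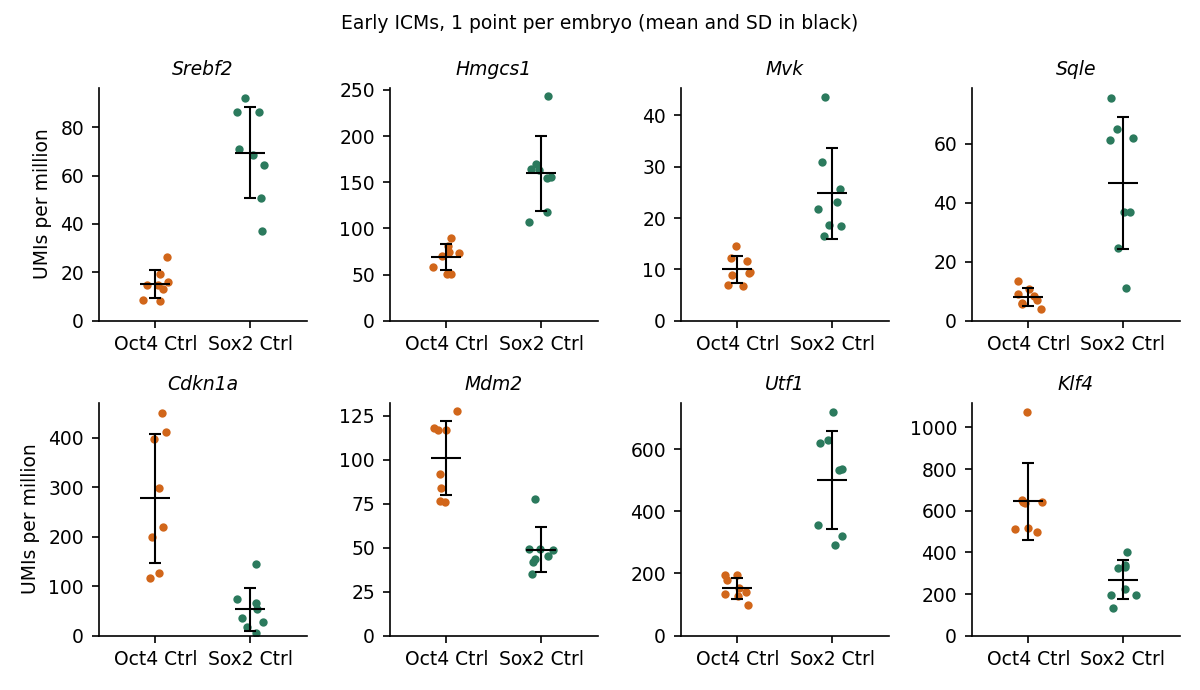
CPM of 8 named genes in each early ICM, with 1 point per embryo and the mean and SD in black. Srebf2, Hmgcs1, Mvk and Utf1 are higher in all 8 Sox2 Ctrl than in any Oct4 Ctrl embryo, Klf4 is lower in all 8, and Sqle, Cdkn1a and Mdm2 overlap at the edge.

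Targets of the MAPK pathway, which the inhibitor acts on, were measured in both groups under the same treatment. Of 14 members tested, 5 were higher in Sox2 Ctrl, none was lower and 9 were not called, with a median of 0.79, where 5.09% of all genes tested were higher. Egr1, an immediate early transcription factor, ran from 8.05 through a median of 45.5 to 70.0 CPM in Oct4 Ctrl and from 72.0 through 143 to 231 CPM in Sox2 Ctrl, without overlap (1.96, SE 0.361, adjusted p = 8.29e-06). Dusp6, a phosphatase that feeds back on ERK, was higher by 1.33 (SE 0.401, adjusted p = 0.00771), and Etv5, an ETS factor, by 1.11, a call lost without Sox2 Ctrl embryo 10 (0.92, adjusted p = 0.00197). Fos and Spred1 were higher by 1.04 each, calls lost in 8 and 5 of the 16 fits that left out 1 embryo each (0.87 to 1.17 and 0.88 to 1.26). Of the 5 called members 4 lay on the axis, all but Spred1. In Ctrl late ICMs none of the 14 was called by edgeR (5 at an unadjusted p under 0.05, 1 called by DESeq2 and 0 by limma). Between MWT early ICMs 9 of the 14 were higher and none lower (median 1.47), where 2.91% of all genes were higher. There the Oct4 MWT embryos, which also define the axis, carry no MEK inhibitor label. With axis position as a covariate none of the 5 stayed called. Egr1, Fos and Spred1 were then at 1.01, 0.95 and 1.02, and Dusp6 and Etv5 at -0.18 and -0.53.

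Targets of p53, the factor that answers DNA damage and stress, were lower in Sox2 Ctrl where they were called. Of 15 members, 5 were lower, none was higher and 10 were not called, with a median of -0.69, where 4.84% of all genes tested were lower. Cdkn1a, a cell cycle inhibitor and classic p53 target, had 117, 259 and 449 CPM in Oct4 Ctrl and 6.15, 44.9 and 145 CPM in Sox2 Ctrl (lowest, median and highest), so that the groups overlapped only at their edges (-2.36, SE 0.453, adjusted p = 1.9e-05). Mdm2, which degrades p53, had 75.9, 105 and 128 CPM against 34.9, 47.1 and 77.8 CPM (-1.04, SE 0.224, adjusted p = 0.000152), and fell just under the minimum of 1 without Oct4 Ctrl embryo 3 or 9 or Sox2 Ctrl embryo 4 (-0.98, -0.99 and -0.98). Bbc3, a cell death gene, was lower by -1.72 (SE 0.529, adjusted p = 0.00915). Btg2 and Pmaip1 were lower by -1.08 and -1.01, calls lost in 12 and 8 of the 16 fits that left out 1 embryo each (-1.37 to -0.85 and -1.20 to -0.91). With axis position as a covariate none of the 5 stayed called, with Cdkn1a at -0.79 (adjusted p = 0.302), Mdm2 at -0.70 (adjusted p = 0.0865) and Bbc3 at -1.07 (adjusted p = 0.421). Trp53, the gene of p53 itself, differed by 0.33 (adjusted p = 0.323). In the MWT early ICMs none of the 15 was lower and 1 was higher, and the MWT log2 fold changes of Mdm2 and Pmaip1 were 0.60 and 1.27, opposite in sign to those of the Ctrl embryos (edgeR interaction, adjusted p = 0.00359 and 0.0197), where Pmaip1 lies on the axis that the Oct4 MWT early ICMs define. For Cdkn1a the interaction did not pass (adjusted p = 0.192). The Oct4 MWT early ICMs carry no MEK inhibitor label and the Sox2 MWT early ICMs do, so treatment may also differ in the MWT comparison.

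Of 18 members of the glycolysis list, 5 were higher, 2 were lower and 11 were not called, with a median of 0.324, where 5.09% of all genes tested were higher and 4.84% lower. Gapdh had 253, 362 and 543 CPM in Oct4 Ctrl and 688, 1012 and 1694 CPM in Sox2 Ctrl without overlap (1.57, SE 0.335, adjusted p = 0.000121), and it rises on the axis. Ldha, which makes lactate, had medians of 10.9 and 63.4 CPM (2.26, SE 0.491, adjusted p = 0.000165), but with axis position as a covariate it was at 0.28 (adjusted p = 0.862). Eno1 had medians of 1.17 and 5.01 CPM and was higher by 2.38 (SE 0.565, adjusted p = 0.000577), from 9 UMIs over the 8 Oct4 Ctrl and 55 over the 8 Sox2 Ctrl embryos. Gapdh and Ldha have numbered pseudogenes in the annotation, to which reads can be lost or assigned. The kinase genes Pfkl and Pfkp were higher by 1.47 and 1.39, calls lost in 10 of the 16 fits for Pfkl and without Sox2 Ctrl embryo 9 (1.13, adjusted p = 0.0504) or 11 (0.90, adjusted p = 0.127) for Pfkp. Hk2, the hexokinase at the entry of the pathway, was lower by -1.18 (SE 0.291, adjusted p = 0.00093), and the glucose transporter Slc2a3 by -1.13, a call lost without Oct4 Ctrl embryo 3 (-0.93, adjusted p = 0.0316).

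Of 90 respiratory chain and ATP synthase genes, 3 were higher, 7 were lower and 80 were not called, and of 86 cytosolic ribosomal protein genes, 3 were higher, 1 was lower and 82 were not called, where 9.93% of all genes tested were called. Cox8a ran from 514 through 594 to 778 CPM in Oct4 Ctrl and from 1340 through 1534 to 1666 CPM in Sox2 Ctrl (1.32, SE 0.127, adjusted p = 1.96e-15). Cox6b1, of the same enzyme complex, ran the opposite way, from 623 through 730 to 884 CPM against 259 through 291 to 383 CPM (-1.25, SE 0.105, adjusted p = 1.12e-18). Rps2 was higher by 1.20 (SE 0.0924, adjusted p = 5.87e-21) and Rpl23a lower by -1.26 (SE 0.103, adjusted p = 2.81e-19), and neither overlapped between groups. The other called subunits were Atp5g2 and Ndufb2, higher by 1.26 and 1.11, and Uqcrb, Atp5mpl, Atp5k, Ndufs4, Ndufb3 and Ndufa5, lower by -1.38 to -1.05. Rpl10 and Rps23 were higher by 1.02 each, and the calls of Rpl10, Rps23 and Ndufa5 were lost in 7, 3 and 2 of the 16 fits that left out 1 embryo each only because the log2 fold change fell just under 1 in size (lowest 0.92 for Rpl10, 0.97 for Rps23 and -0.99 for Ndufa5). Rps2 and Rpl23a have 11 and 14 numbered pseudogenes in the annotation. All 4 of these genes had an interaction with stage (early minus late, adjusted p between 1.25e-06 and 7.51e-11).

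The remaining lists are given beside 9.93% called among all genes. Of these, none of 12 Nodal pathway genes was called by edgeR (2 at an unadjusted p under 0.05, 0 called by DESeq2 or limma), and 1 of 14 integrated stress response genes was, Ddit3 (-1.32), which lost its call without Sox2 Ctrl embryo 5 (-1.16, adjusted p = 0.0526). Among 17 imprinted genes Grb10 and Meg3 were higher by 2.16 and 1.57, with Grb10 at medians of 1.16 and 3.28 CPM and lost in 5 of the 16 fits that left out 1 embryo each. Among 18 cell cycle genes Mki67, a proliferation marker, was lower by -1.02, just past the minimum (lost in 6 of the 16 fits). Of 13 oocyte and maternal-effect genes, Tle6 was higher by 1.09, and not without Oct4 Ctrl embryo 1 (0.99, adjusted p = 0.0238) or Sox2 Ctrl embryo 10 (0.96, adjusted p = 0.0295). None of the 4 Y-linked genes was called by edgeR, DESeq2 or limma, and 0 had an unadjusted p under 0.05. At least 10 Y-linked UMIs were found in 4 Oct4 Ctrl and 3 Sox2 Ctrl embryos.

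Off the axis, 478 genes were higher and 403 lower in Sox2 Ctrl. Among the most different of at least 20 CPM were Zfpm1, a partner of GATA factors, which had 0, 8.71 and 15.8 CPM in Oct4 Ctrl and 23.4, 42.5 and 74.4 CPM in Sox2 Ctrl (lowest, median and highest) and did not overlap (2.28, SE 0.32, adjusted p = 8.17e-09). Pou2f3, a POU-domain transcription factor, ran from 1.22 through 6.48 to 10.2 CPM against 13.5 through 28.2 to 45.5 CPM, also without overlap (2.24, SE 0.403, adjusted p = 5.47e-06). Srebf2, Dipk2a, Slc13a5 (a citrate transporter) and Limd2 were higher by 2.21, 1.94, 1.94 and 1.92. On the lower side, Ddit4, an inhibitor of mTORC1 induced by stress, had 22.4, 43.6 and 116 CPM in Oct4 Ctrl and 1.94, 8.47 and 17.7 CPM in Sox2 Ctrl, without overlap (-2.47, SE 0.441, adjusted p = 4.59e-06). Msx2, a homeobox factor, was lower by -2.29 (SE 0.49, adjusted p = 0.000127), Plk2, a kinase, by -2.22, and Cdkn1a by -2.36.

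Cap1, a regulator of actin, and Cchcr1, a coiled-coil protein, had the lowest fold changes off the axis among the named genes. Cap1 was not even within the Oct4 Ctrl group: embryos 4, 6, 8 and 9 had 97.3, 135, 133 and 132 CPM, and embryos 1, 2, 3 and 7 had 17.3, 2.55, 9.72 and 8.19 CPM. All 8 Sox2 Ctrl embryos had 1.04 to 7.39 CPM (-4.09, SE 0.971, adjusted p = 0.000577). In the Sox2 MWT early ICMs Cap1 was at 34.7 ± 49.8 CPM (SD, n = 7), so that higher levels also occurred in the Sox2 line. The exons of Cap1 overlap those of Ppt1 on the other strand.

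Cchcr1 lies next to Pou5f1, at chr17:35517100-35531015 (mm10), 6328 bases past the end of Pou5f1 and on the same strand. It had 61.2, 114 and 185 CPM in the Oct4 Ctrl embryos and 1.11, 8.87 and 18.8 CPM in the Sox2 Ctrl embryos (lowest, median and highest). The lowest Oct4 Ctrl embryo was above the highest Sox2 Ctrl embryo, and the log2 fold change was -3.64 (SE 0.253, adjusted p = 6.75e-24). Cchcr1 was also lower in the Sox2 line in Ctrl morulae (-3.33) and Ctrl late ICMs (-3.71), but by -0.54 in MWT early ICMs, and the Ctrl and MWT differences were not equal (interaction -3.10, adjusted p = 2.35e-05). Across groups it was at 47.3 to 124 CPM on average in the 6 Ctrl and KO groups of the Oct4 line, at 6.76 to 10.2 CPM in its 3 MWT groups and at 6.57 to 9.71 CPM in the 7 groups of the Sox2 line. The high level was found in the groups whose mothers carried Pou5f1 flox/flox; Zp3-Cre. Tcf19, between the 2 genes, differed by 1.26 and was not called (adjusted p = 0.105). Within 1 Mb of Pou5f1, 9 of 80 genes tested (11.2%) were called, and within 1 Mb of Sox2 1 of 5 (20%). Within 10 Mb of Pou5f1, 46 of 287 genes tested (16%) were called, and within 10 Mb of Sox2 6 of 68 (8.82%), beside 9.93% of all genes.

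**Figure D5:**
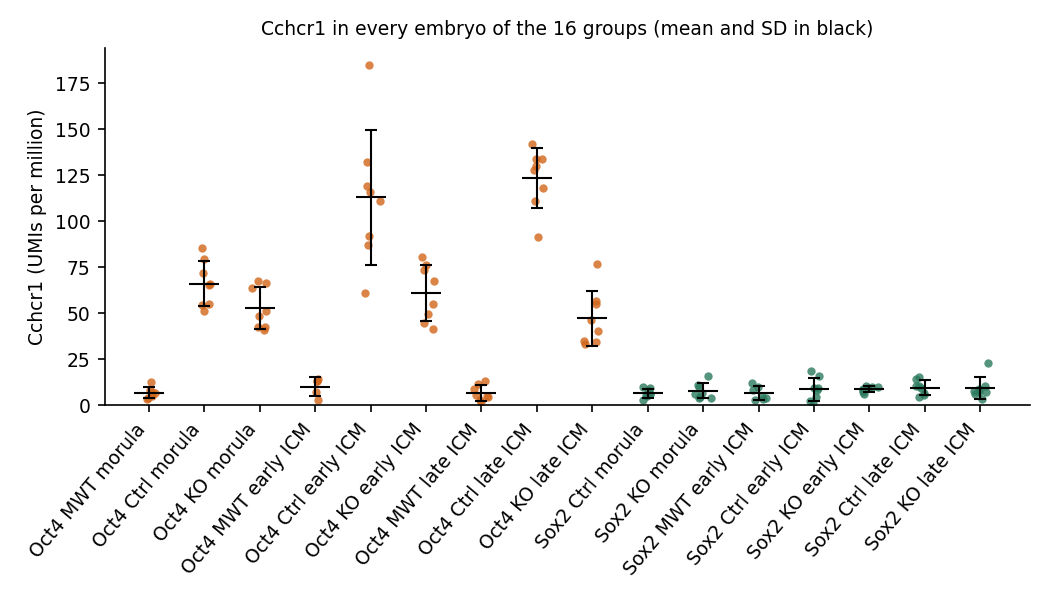
CPM of Cchcr1 in every embryo of the 16 groups (points, orange for the Oct4 line and green for the Sox2 line), with the mean and SD of each group in black. The 6 Ctrl and KO groups of the Oct4 line average 47.3 to 124 CPM, and the 3 Oct4 MWT groups and all 7 groups of the Sox2 line average 6.57 to 10.2 CPM.

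The differences between the controls were then read in embryos of the 2 lines that the comparison did not use. The MWT comparison shares the Oct4 MWT early ICMs with the axis, so for the classes of genes only those off the axis were counted in it. Only its Sox2 group carries a MEK inhibitor label, so its groups may differ in treatment as well as line. Of the 881 genes off the axis, 734 (83.3%) had the same direction between the MWT early ICMs, against 66% of uncalled genes off the axis, and 197 were called in the same and 1 in the opposite direction, where 8.07% of all genes were called. In Ctrl late ICMs 617 (70%) had the same direction, against 54.7% of uncalled genes off the axis, and 72 were called in the same and 3 in the opposite direction, where 2.6% of all genes were called. In Ctrl morulae 402 (45.6%) had the same direction, against 43.8% of uncalled genes, and 42 were called in the same and 40 in the opposite direction, where 7% were called. Of the 478 genes towards late, 286 (59.8%) had the same direction between Ctrl late ICMs, against 37.1% of uncalled genes of this class, with 19 called in the same and 3 in the opposite direction. Between Ctrl morulae 247 (51.7%) had the same direction, against 45.6% of uncalled genes of this class, with 74 called in the same and 36 in the opposite direction. The line difference differed between early and late ICMs (interaction adjusted p under 0.05) for 240 of the 502 called axis genes (47.8%) and for 253 of the 881 called genes off the axis (28.7%), beside 13.2% of all genes. It differed between Ctrl and MWT early ICMs for 30 of the 881, beside 1.14% of all genes.

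Only 4 genes off the axis were called in the same direction in all 4 line comparisons, Ctrl early ICM, MWT early ICM, Ctrl morula and Ctrl late ICM. Of these, 3 are described. Dipk2a was higher in the Sox2 line by 1.94, 2.71, 1.70 and 1.57 in that order, and in early ICMs its Oct4 Ctrl embryos (3.65 to 24.9 CPM) lay below all Sox2 Ctrl embryos (40.9 to 81.5 CPM). Wdfy1, an endosomal protein, was lower by -1.08, -2.17, -1.20 and -1.48, at means of 75.6 and 35.2 CPM in Oct4 Ctrl and Sox2 Ctrl early ICMs. Gm10039, a predicted gene on chromosome 11, averaged 40.6 CPM in Oct4 Ctrl early ICMs and had no UMI in the Sox2 Ctrl early ICMs. Wdfy1 and Gm10039 are outside the rule for named genes and were chosen after their values were seen.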

How the data were processed

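Per the methods of the study, the authors took single-embryo 3′ RNA-seq reads through UMI-tools, Cutadapt, TopHat2 (mm10), featureCounts and TRUmiCount; the strand setting is not given in the sources used here. The main table holds deposited UMI counts per gene. The second holds deposited log2-scale rlog values made with DESeq2, used only as an alternative. A gene was kept if 0.5 or more of any stage's embryos had it (13923 of 29022). All 16 groups were fitted together in edgeR 4.0.16 (quasi-likelihood, TMM) under R 4.3.3, with Benjamini-Hochberg adjustment over all genes tested. limma 3.58.1 and DESeq2 1.42.0 gave alternatives. On simulated data for this comparison, with 13923 genes, 68% of 2-fold and 96% of 4-fold changes were recovered. Recovery counted the adjusted p and the direction without the fold minimum, so it does not give the share that would be called. False calls, counted with the fold minimum, numbered 0. The changed genes were drawn from those averaging 5 CPM or more. No pair among 56 compared had counts within sampling noise. The members, the gene lists and the tests were chosen with earlier results of these data known. Named were Pou5f1, Sox2, every called list member, and, among called genes averaging 20 CPM or more where higher and with all 8 Sox2 Ctrl embryos on one side of the Oct4 Ctrl median, the 5 highest and lowest fold changes towards late, 3 against it and 6 off the axis, passing over predicted genes, clones and pseudogenes. Reads of overlapping genes on opposite strands may be shared, which concerns 24 of the 85 genes this rule picked. Some of these genes are not reported here.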

Additional observations from a re-analysis of the deposited data

Results flagged for a closer look

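In 176 sets of 8 embryos, 18 held an embryo far from the other 7. The cut-off gives about 1 in 20, or 8.8 sets, only for normally distributed values. Raw CPM values need not be normal, so the 18 cannot be compared with chance. The highest Oct4 Ctrl embryo stood apart for Btg2 (73.9 CPM), Foxd3 (62.9), Gata4 (7.46), Klf4 (1073), Krt19 (3.2), Plk2 (90.7), Sc5d (15) and the summed TE markers (1307), and the lowest for Tmem87a (4.86). The highest Sox2 Ctrl embryo stood apart for Cdx2 (15.6 CPM), Eno1 (19.9), Gadd45g (25.4), Grb10 (14.4), Hk2 (88.6), Hmgcs1 (243), Mdm2 (77.8), Ndufb3 (103) and St6galnac4 (3.32).

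For 10 of 82 named genes the line difference was not the same in Ctrl and MWT early ICMs (edgeR interaction, adjusted p under 0.05). The Oct4 MWT early ICMs used here also define the axis, on which Dlgap3, Flvcr2, Hap1, Pmaip1 and Tle6 lie. They carry no MEK inhibitor label, unlike the Sox2 MWT early ICMs. The Ctrl minus MWT log2 value was -3.1 for Cchcr1, 3.35 for Dlgap3, -1.58 for Flvcr2, 3.14 for Hap1, 2.81 for Ldha, -1.64 for Mdm2, -2.28 for Pmaip1, 2.33 for Pou2f3, -1.39 for Pou5f1 and 1.86 for Tle6.

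For 28 named genes it was not the same in early and late Ctrl ICMs. The early minus late log2 value was positive for Atp5g2 (1.41), Chpf (2.24), Cox8a (1.42), Egr1 (1.55), Fos (1.73), Foxd3 (2.44), Ndufb2 (1.31), Rpl10 (1.23), Rps2 (1.09), Rps23 (0.99), Sox17 (2.62), Srebf2 (1.45), Utf1 (1.66) and Zfpm1 (2.05). It was negative for Ammecr1l (-2.23), Atp5k (-1.17), Atp5mpl (-1.24), Cox6b1 (-0.912), Ddit4 (-2.42), Hk2 (-1.47), Mki67 (-1.49), Ndufa5 (-1.06), Ndufb3 (-1.24), Ndufs4 (-0.87), Nucb2 (-2.31), Pou5f1 (-1.79), Rpl23a (-1.22) and Uqcrb (-1.29).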

How the results depend on the processing

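The number of genes differing between the controls (1383) was 1316 with DESeq2 and 1262 to 1450 without each embryo in turn, where the genes towards late, against late and off the axis numbered 423 to 511, 15 to 32 and 802 to 913 (15 without Oct4 Ctrl embryo 9) and the position differed by 0.374 to 0.441. Limma on rlog values gave 433 genes (204 towards late, 8 against, 221 off), an axis of 854, and 525, 298 and 155 genes for the MWT, morula and late comparisons. Without a fold minimum there were 3622 genes (720 towards late, 2870 off), an axis of 3624, and 2411, 2910 and 792 genes in those comparisons. The axis from both KO lines left 6 genes towards late, 2 against and 1375 off, and the Sox2-KO axis 11, 12 and 1360 with a position difference of -0.671. On the MWT axis the Sox2-KO early and late ICMs averaged 0.487 and 0.508. A strict definition left 297 genes off the axis. The interaction of Ctrl and MWT numbered 159 genes (76 higher, 83 lower), 106 higher and 73 lower under library totals, and 267 genes in DESeq2. Axis position as a covariate is computed from the axis genes of the same embryos and overlaps with line, so that position and line cannot be told apart. In that fit 106 genes were towards late and 124 against. There 39 of 85 genes picked for naming lost their call with the same sign, and the sign turned for Dnmt3l (-0.70), Dusp6 (-0.18), Etv5 (-0.53), Foxd3 (-3.48), Pfkp (-0.74) and Tcl1 (-0.0464). The cause of these changes was not tested.

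Replicate numbers 2, 4, 7 and 9 occur in both groups, with correlations of their deviations of 0.0922, -0.0128, -0.0581 and 0.143, and 1 of the 4 numbers matched best with itself, so the embryos share only a number. With the replicate block on these 8 embryos, 839 genes were called (226 towards late, 35 against, 578 off), against 600 without it (159 towards late, 14 against, 427 off).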
